A study of Mus musculus with 12 samples.

Results

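Replication-dependent histone genes were taken as every gene row whose symbol starts with Hist1h, Hist2h, Hist3h or Hist4h, the names of the 4 mouse histone gene clusters. The count files listed 65 such genes among 22310 gene symbols. Of these, 58 had 10 or more counts in total over the 12 libraries and are described here: 6 genes of linker histone H1, 14 of H2a, 15 of H2b, 11 of H3 and 12 of H4. By cluster, 48 carry Hist1, 7 Hist2, 2 Hist3 and 1 Hist4 names, and in the RefSeq table of assembly GRCm38.p6 those clusters lie on chromosomes 13, 3, 11 and 6. The other 7 rows had under 10 counts, and 5 of them were at 0 in every library. Of these 7, 6 form 3 pairs with identical coding sequences (Hist1h2ao and Hist1h2ap, Hist1h2bq and Hist1h2br, Hist2h2aa1 and Hist2h2aa2). A read from the coding sequence of such a pair matches each gene of the pair, and whether this lowered their counts was not tested. The last of the 7, Hist1h2ba, belongs to the male germ line and had 5 counts.

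Mouse satellite cells, the stem cells of skeletal muscle, were purified from hindlimbs injured 3 days before with barium chloride (50 µl at 1.2%, spread over about 20 sites), a time at which they are activated. The 12 total RNA libraries fall into 4 groups of 3: young wild type, old wild type, young Hoxa9 knockout and old Hoxa9 knockout, where young means 3 to 4 months and old 22 to 28 months, all on a C57BL/6 background and all injured. Hoxa9 is a homeobox transcription factor, and the comparisons ask how ageing and its loss change the transcripts of activated satellite cells. The labels do not say which part of Hoxa9 was deleted, in which cells, whether animals were pooled, or that numbered libraries came from separate animals, and a p-value here measures only how far these samples spread, which may be technical.

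Replication-dependent histone genes supply the core histones H2A, H2B, H3 and H4 and the linker histone H1 that package newly copied DNA. They have no introns, are transcribed mainly during S phase, and their mRNAs usually end in a short stem-loop in place of a poly(A) tail. The stem-loop is bound by the protein SLBP and, with U7 RNA, sets where the mRNA is cut. After S phase these mRNAs are degraded, so their level in a cell population tracks how many cells are copying DNA. Because the library kit removed ribosomal RNA and did not select poly(A) tails, it can record stem-loop mRNAs.

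The stem-loops are shown because they are the shared 3′ signal of this gene family. A fixed pattern for a stem of 6 bases and a loop of 4 was searched after the stop codon in the GENCODE M21 transcripts. It was found in 39 of the 58 genes, 21 to 54 bases downstream (median 31), each time as an inverted repeat. Stem-loops outside this pattern would be missed. Of the 19 genes without it, 16 had fewer than 50 bases annotated after the stop codon. Loops are in capitals, written as DNA, and the 8 forms differed in the stem, the loop or both.
24 genes of types H1, H2a, H2b and H3, including 4 of the rows with under 10 counts: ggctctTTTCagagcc
6 H4 genes (Hist1h4c, Hist1h4d, Hist1h4f, Hist1h4h, Hist1h4n, Hist4h4): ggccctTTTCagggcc
6 genes (Hist1h1t, Hist1h2bb, Hist1h2bk, Hist1h3c, Hist1h3e, Hist1h3f): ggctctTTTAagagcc
Hist2h4 and Hist1h4i: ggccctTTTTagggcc
Hist1h4b and Hist1h4j: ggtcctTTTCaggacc
Hist1h4a: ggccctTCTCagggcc
Hist1h3g: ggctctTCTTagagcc
Hist2h2ac: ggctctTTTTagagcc
The most common form occurs both in Hist1h3d, which fell in young knockout, and in Hist1h1e, Hist1h2ad and Hist1h2ae, which rose in old knockout. The 38 tested genes with a stem-loop had a median log2 fold change of -0.53 in young knockout against young wild type, and the 18 without one in the annotation had -0.35.

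Promoters were matched in RefSeq for 53 of the 58 genes by symbol (the windows of Hist2h4, Hist1h2bc, Hist1h3a, Hist1h3f and Hist2h2be were not in the table). In windows from 250 bases before to 50 bases after the start, CCAAT on either strand was present in 84.9% of the histone promoters against 37.4% of all 32851 promoters in the table. It was found in all 6 H1, 14 H2a, 13 H2b and 9 H3 windows but in only 3 of 11 H4 windows. TATAAA was found in 60.4% against 13.6%. The octamer ATTTGCAT, the OCT1 site known from H2B promoters, was found in 22.6% against 1.74%, in 7 H2a and 5 H2b windows and in no H1, H3 or H4 window. AAACACA, the H1 box, was found in 5 of 6 H1 windows against 7.18% of all promoters, and TTTCGCGC, an E2F-type site, in 17.0% of the histone windows against 0.323%. Both strands were searched for every motif, and none of these motifs contains another. Neighbouring H2a and H2b genes are often transcribed away from each other, so their windows overlap and the matches are not independent: those of Hist1h2ae and Hist1h2bg share 279 bases.

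Next, 3 of these promoters are shown, each as the 250 bases before the start with motif matches in capitals, for an H1 gene that fell in young knockout, for an H3 gene that fell, and for the abundant H2b gene beside that H3 gene, which did not pass the test. The coordinates are in GRCm38.p6, which is not the build of the counts.
Hist1h1b (chr13:21780626-21780875, minus strand): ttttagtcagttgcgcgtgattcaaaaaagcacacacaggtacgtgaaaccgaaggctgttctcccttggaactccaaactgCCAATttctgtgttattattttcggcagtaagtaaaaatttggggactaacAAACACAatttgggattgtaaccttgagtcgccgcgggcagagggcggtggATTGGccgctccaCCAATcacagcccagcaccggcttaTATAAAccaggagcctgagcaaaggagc
Hist2h3b (chr3:96268404-96268653, plus strand): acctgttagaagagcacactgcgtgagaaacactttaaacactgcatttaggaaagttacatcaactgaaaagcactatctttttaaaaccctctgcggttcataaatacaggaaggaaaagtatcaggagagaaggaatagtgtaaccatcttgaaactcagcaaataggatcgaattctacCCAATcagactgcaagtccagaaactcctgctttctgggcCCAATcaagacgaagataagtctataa
Hist2h2bb (chr3:96269450-96269699, plus strand): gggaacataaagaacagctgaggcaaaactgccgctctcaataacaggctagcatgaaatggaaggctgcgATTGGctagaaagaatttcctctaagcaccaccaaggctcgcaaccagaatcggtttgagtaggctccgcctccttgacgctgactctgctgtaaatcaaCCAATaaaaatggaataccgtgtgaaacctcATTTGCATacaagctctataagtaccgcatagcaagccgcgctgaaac
The Hist1h1b window holds CCAAT or its reverse complement ATTGG 168, 66 and 53 bases before the start, the H1 box 117 bases and TATAAA 28 bases before it. Hist2h3b holds CCAAT 67 and 27 bases before the start and none of the other motifs. Hist2h2bb holds CCAAT 179 and 79 bases before the start and the octamer 48 bases before it. The octamer and the H1 box are thus each present in 1 of these 3 windows, whereas CCAAT is present in all 3.

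Near-identical coding sequences limit what a count of any histone gene means. Over windows of 50 bases, a median of 27.7% of the windows in a coding sequence occurred in no other gene of the annotation. The H1 genes were the most distinct, with 73.5% to 100% unique windows. For H2a the median was 19.1%, for H2b 26.1%, for H3 17.5% and for H4 30.2%, and 42 of the 58 genes were under 50%. Hist1h2ad, Hist1h2ag, Hist1h4n and Hist2h3c2 had none. The count files hold a separate category for reads with several alignments, at 1.27 to 7.54 per gene read. Whether such reads were also counted to genes is not stated. Values of genes with few unique windows are therefore uncertain, and UTR reads may carry part of them.

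Library facts bear on every comparison below. The libraries held between 4193433 and 20337015 gene reads, of which histone genes took 8803 to 56350 counts, or 0.191% to 0.450%. Hoxa9, the targeted gene, had 7.96 to 22.5 CPM (counts per megaread after TMM scaling of each library's gene reads, with factors of 0.773 to 1.12) in the 6 wild-type libraries and 4.55 to 7.21 CPM in the 6 knockout libraries, where 22 to 87 reads per library remained. It was lower in old knockout (log2 fold change -1.63 ± 0.25, SE; adjusted p = 0.00235 in edgeR's quasi-likelihood test), and in young knockout its value of -0.67 ± 0.24 did not pass (adjusted p = 0.0671). Each library's deviation from the mean level of a gene was related to the gene's GC content, negatively in all 6 knockout libraries (Spearman's rho -0.526 to -0.128 across 13267 genes) and positively in all 6 wild-type libraries (0.218 to 0.497), so GC trend and genotype cannot be told apart. The mitochondrial leucyl-tRNA synthetase gene Lars2 took 0.0258% to 0.110% of gene reads in wild type and 0.485% to 25.0% in knockout. Histone coding sequences are GC-rich, with a median of 65.0%, against 51.0% for whole annotated transcripts of the other genes tested. These measures are unlike, since transcripts include UTRs, and the GC offsets used the same values. Old knockout replicates 2 and 3 had 125 and 151 CPM of the Y-linked gene Ddx3y against at most 5.11 CPM in the other 10 libraries. Old wild-type replicate 2 and old knockout replicate 3 had the most reads outside genes, 57.1% and 70.8%. Counts of histone genes called between genotypes are given with GC offsets and without these libraries below, and those of the other gene lists with GC offsets. The shares of all genes called under those settings are not given, so these counts have no background beside them.

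All 10 satellite cell markers on the list were detected in each group, at a summed level of 6415 to 10219 CPM per library. Lymphocyte markers summed to at most 5.67 CPM in any library. The lymphocyte gene Cd3e was at 0 in 3 of the 4 groups. Markers of other cell types are given beside the comparisons they accompany. In such bulk samples, fewer cells of a type and less RNA per cell cannot be told apart.

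Histone genes together made up 2588, 4252 and 3022 CPM in the 3 young wild-type libraries and 2998, 2201 and 3445 CPM in the 3 old ones. Among knockouts the sums were 1875, 3070 and 2187 CPM in young and 2973, 3771 and 3066 CPM in old mice. The 4 groups overlapped, except that the highest young wild-type library lay above all others and the lowest young knockout library below all others. As mean ± SD (n = 3), the sums were 3287 ± 863, 2881 ± 630, 2377 ± 620 and 3270 ± 436 CPM in that order. Replicate 2 of young wild type held the highest level of 25 of the 56 genes that passed the filter on low counts, and old knockout replicate 2 held that of 22. Young knockout replicate 1 held the lowest level of 30.

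**Figure D1:**
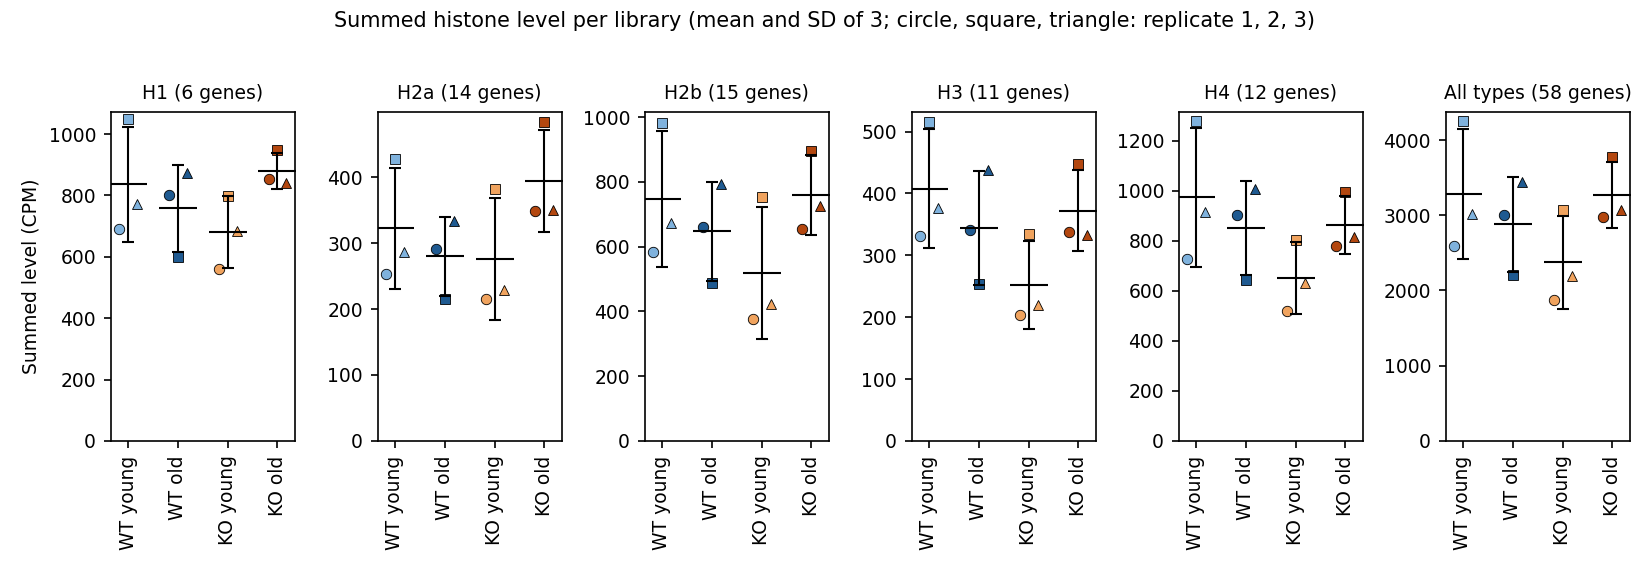
Summed CPM of each histone type and of all types (y axis) in each library, by group (x axis); points are libraries, bars the mean and SD of 3. For all types the sums run from 1875 to 4252 CPM and the groups overlap, with young knockout having the lowest mean in every panel.

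H1 and H4 gave the most histone reads. Of all histone counts, H4 took 26.2% to 30.3% per library, H1 24.7% to 31.3%, H2b 19.4% to 24.5%, H3 10.1% to 12.8% and H2a 9.48% to 12.8%. In young mice the H3 share was 12.5% ± 0.34 in wild type and 10.6% ± 0.46 in knockout (SD, n = 3), and in old mice 11.9% ± 0.73 and 11.3% ± 0.52. The H2a share was 9.48% to 10.05% in the 6 wild-type libraries and 10.5% to 12.8% in the 6 knockout libraries, so the genotypes did not overlap. The H4 share was 28.2% to 30.3% in wild type and 26.2% to 28.8% in knockout, an overlap of the ranges.

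Levels within the family ranged widely. The mean over the 12 libraries ran from 0.733 CPM for Hist1h1t, the testis H1, to 225 CPM for Hist1h4d, with a median of 32.9 CPM over the 56 genes. Per kilobase of coding sequence, Hist1h4d was also the highest at 727 CPM, followed by Hist2h2bb at 506, Hist1h4h at 445 and Hist1h4c at 418 CPM per kb. Hist1h4d ranged from 153 to 324 CPM over the 12 libraries and Hist2h2bb from 100 to 266 CPM. Among the linker histones Hist1h1c, which also gives polyadenylated mRNA outside S phase, was highest at 349 CPM per kb, and Hist1h1e had 265. Hist1h2ak and Hist1h2ab led H2a at 142 and 136 CPM per kb, Hist2h2bb and Hist1h2bb led H2b at 506 and 295, and Hist1h3f and Hist1h3e led H3 at 158 and 150. The first gene of the pair was the higher per kb in all 12 libraries for H1, H2b and the H4 pair of Hist1h4d and Hist1h4h, but in 7 of 12 for H2a and for H3. Hist1h3f had the higher mean CPM in wild type (78.4 against 71.0 in young, 65.8 against 57.2 in old) and Hist1h3e in knockout (48.8 against 47.4, and 67.4 against 67.1). Hist1h2ak had the higher mean in wild type (62.5 against 51.7, and 47.1 against 42.7) and Hist1h2ab in knockout (52.3 against 47.2, and 65.6 against 64.0). The ranges of each pair overlapped in every group, and the order was not tested. At the low end, Hist1h2aa and Hist2h3c2, with 10 and 23 counts in total, did not pass the filter on low counts and were not tested.

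In young mice, 8 of the 56 tested histone genes were called lower in knockout and none higher. Calls are from edgeR's quasi-likelihood test at a Benjamini-Hochberg adjusted p under 0.05 over 13540 genes. At an unadjusted p under 0.05, 21 were lower and 0 higher, against 2416 lower and 2424 higher of all 13540 genes. DESeq2 called 11 lower and 0 higher, against 3335 of all genes in either direction. In edgeR 10% of all genes were called lower and 10.9% higher in this comparison, so the share lowered, 8 of 56, was near the background. The genes called lower were 2 of H1, 3 of H3 and 3 of H4, with none of 13 H2a or 15 H2b genes. The log2 fold change was negative for 48 of the 56, with a median of -0.48 against -0.02 over all genes. By type the medians were -0.31 for H1, -0.18 for H2a, -0.43 for H2b, -0.67 for H3 and -0.64 for H4.

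Hist2h4, an H4 gene of the chromosome 3 cluster whose coding sequence has 93.8% unique windows, showed the smallest adjusted p. It was found at 59.6, 89.6 and 66.1 CPM in young wild type and at 20.0, 22.6 and 22.6 CPM in young knockout. All 3 knockout libraries lay below all 3 wild-type libraries, and the log2 fold change was -1.72 ± 0.24 (SE, adjusted p = 0.000908). In old mice it stood at 69.8, 50.3 and 89.8 CPM in wild type and 36.2, 50.5 and 31.1 CPM in knockout. There the groups touched at old wild-type replicate 2 and old knockout replicate 2, and it fell by 0.82 ± 0.23 on the log2 scale (adjusted p = 0.0282), a call that was lost with GC offsets (-0.59 ± 0.20, adjusted p = 0.0835).

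Hist2h3b, an H3 gene of the same cluster, was found at 27.5, 45.1 and 32.0 CPM in young wild type and 10.8, 11.6 and 15.7 CPM in young knockout. The groups did not overlap, and the log2 fold change was -1.48 ± 0.28 (adjusted p = 0.00309). In old mice it was found at 24.1, 20.3 and 41.5 CPM in wild type and 16.5, 19.8 and 15.4 CPM in knockout, which did not overlap either, and the log2 difference of -0.72 ± 0.27 did not pass the test (adjusted p = 0.0795). Only 5.85% of its coding windows are unique. The cluster as a whole did not follow these genes: its 6 tested members had a median log2 fold change of -0.37 in young knockout, from -1.72 to 0.37, and the adjoining Hist2h2bb stood at -0.62 ± 0.27 (adjusted p = 0.127).

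Hist1h4n, a weakly expressed H4 gene with no unique coding window, was nearly lost from the knockout libraries. In wild type it had 19, 26 and 53 counts in young and 76, 11 and 52 in old mice. In knockout it had 2, 3 and 0 counts in young and 1, 9 and 0 in old mice. Every knockout library was below every wild-type library. The fitted log2 fold changes were -3.77 ± 0.94 in young (adjusted p = 0.0131) and -3.12 ± 0.85 in old mice (adjusted p = 0.0257), values that depend on the prior count at such depths. Of all H4 counts it took 0.126% to 0.517% in wild type and at most 0.060% in knockout.

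The linker histones Hist1h1a and Hist1h1b, whose coding sequences are wholly unique, fell in young knockout. Hist1h1a was found at 143, 258 and 181 CPM in young wild type and 67.5, 120 and 98.9 CPM in young knockout, without overlap (log2 fold change -1.02 ± 0.28, adjusted p = 0.0243). Hist1h1b was found at 136, 171 and 138 CPM against 74.6, 98.1 and 79.5 CPM, again without overlap (-0.82 ± 0.19, adjusted p = 0.00912). The 2 most abundant H1 genes did not pass: Hist1h1c stood at 0.05 ± 0.16 and Hist1h1e at 0.26 ± 0.17. The difference between these genes was not tested.

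Of the remaining called genes, Hist1h3g was found at 20.2, 35.6 and 22.6 CPM in young wild type and 9.86, 17.1 and 11.4 CPM in young knockout, without overlap (log2 fold change -1.02 ± 0.26, adjusted p = 0.0161). Hist1h3d was found at 29.3, 52.3 and 35.2 CPM against 16.7, 27.7 and 17.4 CPM, without overlap (-0.90 ± 0.30, adjusted p = 0.0464). Hist1h4h was found at 124, 226 and 174 CPM against 70.7, 130 and 79.3 CPM. Its highest knockout library lay above its lowest wild-type library, and its log2 fold change was -0.90 ± 0.27 (adjusted p = 0.0341). In all, 9 of the 56 genes were lower in young knockout without overlap, against 19.6% of all genes. The leaders Hist1h4d (-0.38 ± 0.20), Hist1h3f (-0.71 ± 0.26), Hist1h3e (-0.53 ± 0.23), Hist1h2bb (-0.56 ± 0.34), Hist1h2ak (-0.40 ± 0.33) and Hist1h2ab (0.03 ± 0.26) did not pass the test.

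These calls depended on GC correction and on single libraries. With offsets for each library's GC trend, the median log2 fold change of the histone genes in young mice was -0.06, equal to that over all genes, 25 of 56 were positive, 3 were called lower (Hist2h4, -1.33; Hist2h3b, -1.02; Hist1h4n, -3.35) and 2 higher (Hist1h1e, 0.64, and Hist1h1c, 0.45). Hist1h1a, Hist1h1b, Hist1h3d, Hist1h3g and Hist1h4h lost their calls there, with values of -0.72, -0.51, -0.47, -0.59 and -0.48. The share of all genes called with those offsets is not given here. Hist2h4 and Hist2h3b were called in all 22 alternatives run and Hist1h4n in the 21 where it was fitted. The number called was 4 without young wild-type replicate 2, 4 without young knockout replicate 1, 5 without young knockout replicate 3 and 14 without young knockout replicate 2. Across the 56 genes, coding GC content and the log2 fold change were nearly unrelated in young mice (Pearson's r 0.03, Spearman's rho 0.11, over genes that share libraries and, in part, reads). In old mice the values were 0.21 and 0.36, for wild-type ageing -0.36 and -0.24, and for ageing in knockout 0.03 and 0.15. For the difference between age effects they were 0.42 and 0.34. All 58 coding sequences lie between 55.6% and 70.3% GC, so these values do not measure a GC effect common to the family.

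**Figure D2:**
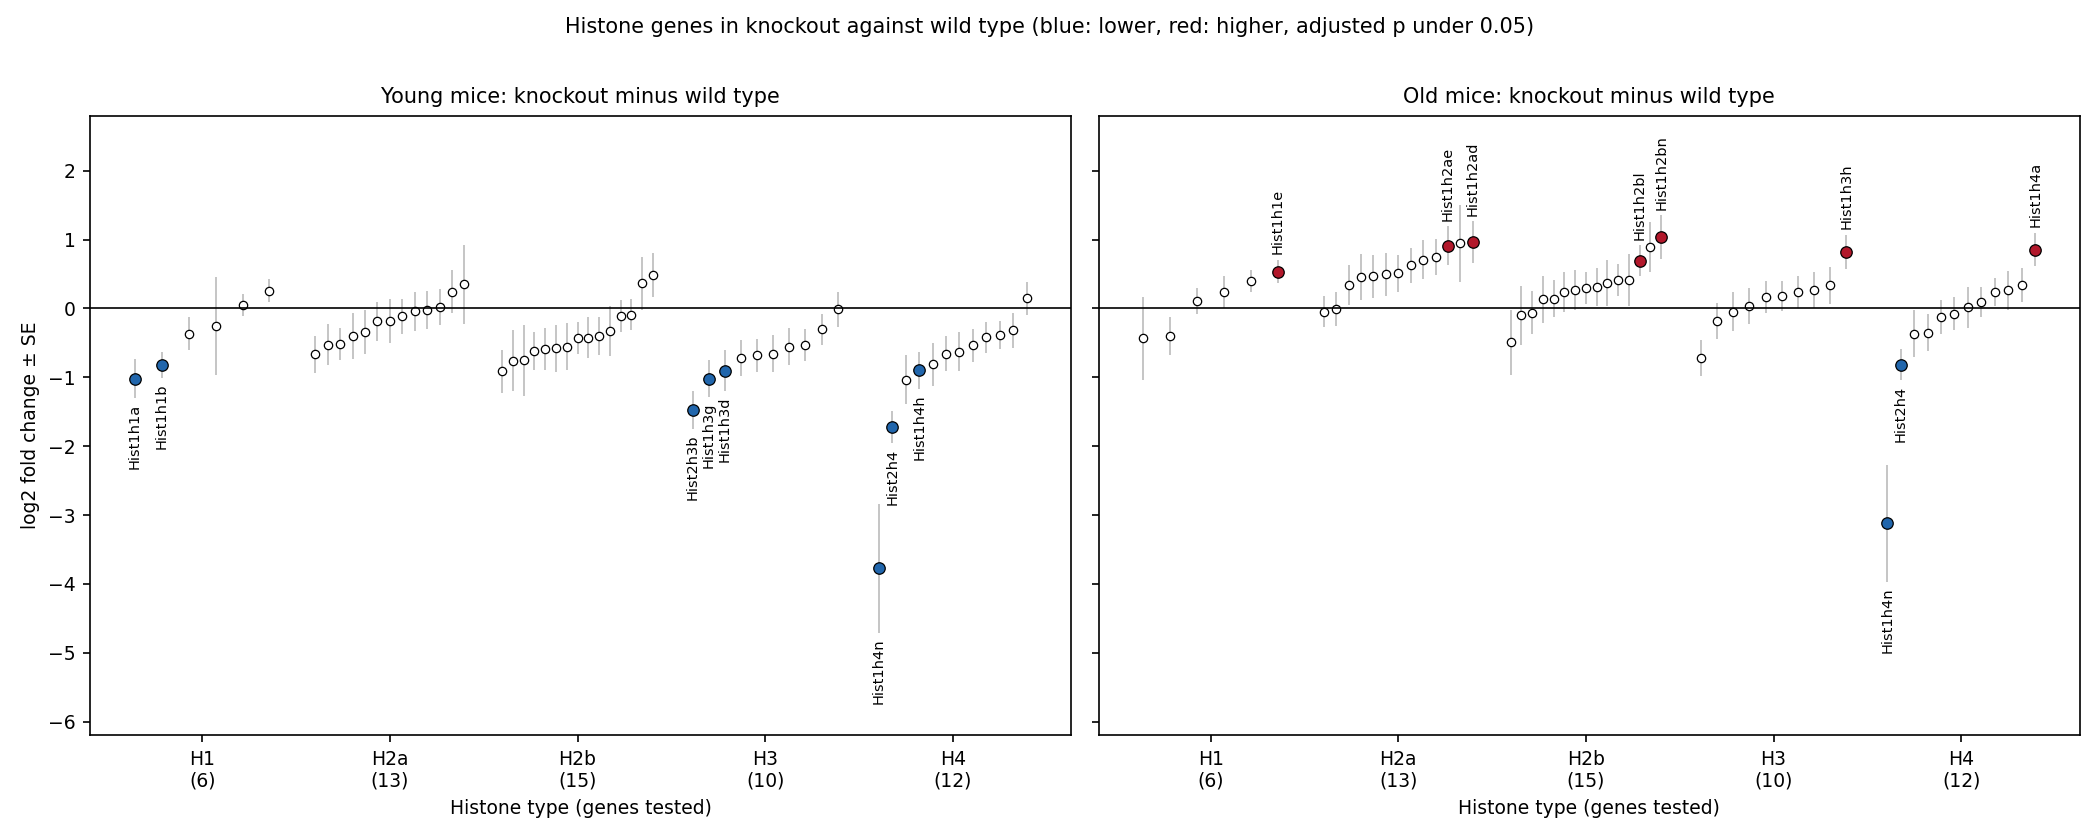
Log2 fold change with its SE (y axis) of each of the 56 tested histone genes, by type (x axis), knockout minus wild type in young (left) and old mice (right); filled points passed the test. In young mice 8 genes are lower and none higher, and in old mice 7 are higher and 2 lower.

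In old mice, 7 of the 56 histone genes were called higher in knockout and 2 lower, Hist1h4n and Hist2h4. Over all genes 9.52% were called higher and 7.21% lower, so 7 of 56 was again near the background. The genes called higher were 1 of H1, 2 of H2a, 2 of H2b, 1 of H3 and 1 of H4, all in the chromosome 13 cluster. The log2 fold change was positive for 40 of 56, with a median of 0.25 against -0.02 over all genes. Type medians were 0.17 for H1, 0.51 for H2a, 0.30 for H2b, 0.17 for H3 and -0.03 for H4.

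Hist1h4a, an H4 gene with its own stem-loop form, was found at 32.9, 27.1 and 37.5 CPM in old wild type and 50.2, 71.3 and 54.6 CPM in old knockout (log2 fold change 0.86 ± 0.24, adjusted p = 0.0310). Hist1h3h, an H3 gene, was found at 11.8, 8.85 and 14.6 CPM against 17.0, 26.3 and 18.6 CPM (0.82 ± 0.25, adjusted p = 0.0384). The H1 gene Hist1h1e was found at 148, 132 and 151 CPM against 207, 221 and 195 CPM (0.54 ± 0.17, adjusted p = 0.0451). In each of these genes all 3 knockout libraries lay above all 3 wild-type libraries.

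Hist1h2bn, an H2b gene, was found at 9.04, 5.17 and 8.31 CPM in old wild type and 14.6, 16.8 and 15.1 CPM in old knockout (log2 fold change 1.04 ± 0.32, adjusted p = 0.0391). Hist1h2bl was found at 12.4, 12.4 and 18.2 CPM against 23.0, 25.0 and 21.5 CPM (0.70 ± 0.22, adjusted p = 0.0459). The H2a gene Hist1h2ae was found at 12.9, 8.45 and 11.7 CPM against 19.4, 25.2 and 17.1 CPM (0.91 ± 0.28, adjusted p = 0.0415). Another H2a gene, Hist1h2ad, was found at 11.8, 6.66 and 9.60 CPM against 13.8, 23.3 and 17.4 CPM (0.96 ± 0.31, adjusted p = 0.0463), which did not pass with GC offsets (1.02, adjusted p = 0.0514). None of these 4 genes overlapped between the groups, and all 4 have fewer than 20% unique coding windows. In all, 15 of 56 genes were higher in old knockout without overlap, against 21.6% of all genes. Abundant genes such as Hist1h4d (0.24 ± 0.20), Hist2h2bb (0.14 ± 0.27), Hist1h2bb (0.13 ± 0.34) and Hist1h1c (0.40 ± 0.16) did not pass.

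The calls in old mice rested on single libraries. Leaving out old wild-type replicate 1 brought the 9 calls to 0, as did leaving out old knockout replicate 3. Leaving out old wild-type replicate 2, old wild-type replicate 3 or old knockout replicate 2 brought them to 2 each. The count was 3 without old knockout replicate 1 and 3 without young wild-type replicate 3, which enters only the shared estimate of spread. Without the 2 libraries that carry Ddx3y the count was 0 and the median log2 fold change 0.11. Without the 2 libraries with the most reads outside genes the count was also 0. With scaling by library size alone, which moved the median of all genes to -0.26, the histone median was 0.02, no histone gene was called higher and 3 were called lower. With GC offsets 8 were called higher and 1 lower, and the median was 0.44 against -0.05 over all genes.

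**Figure D3:**
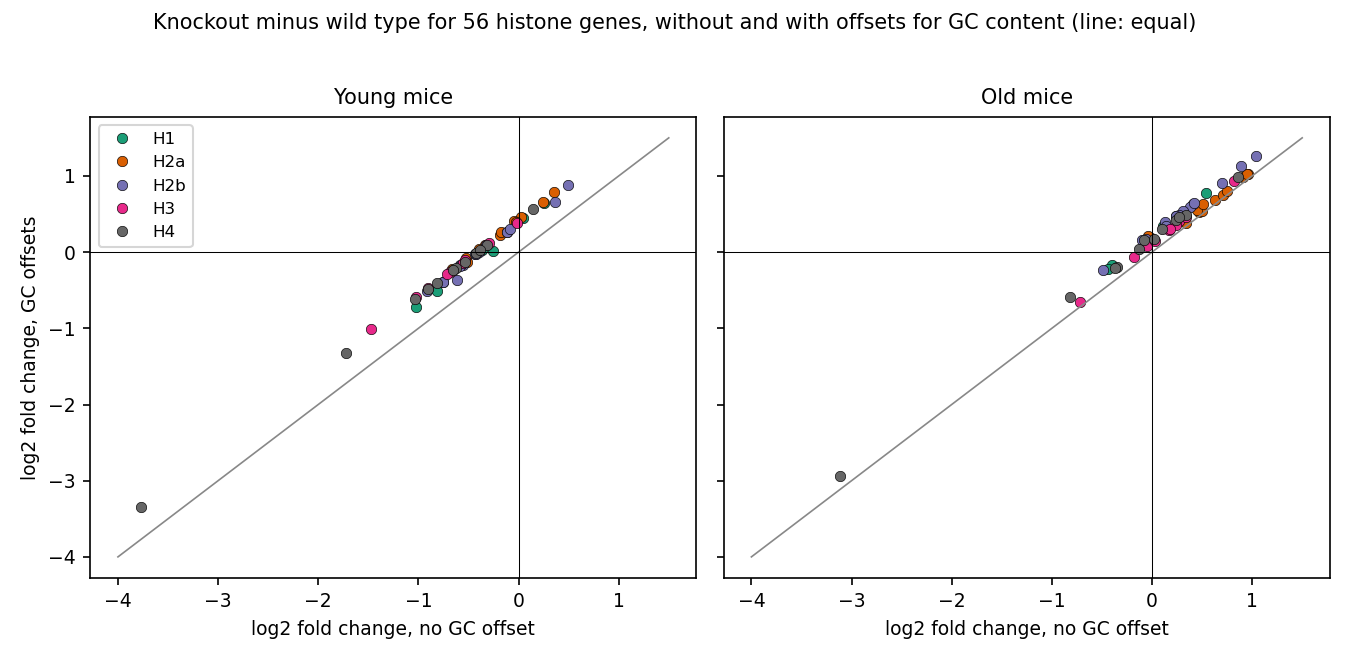
Log2 fold change, knockout minus wild type, of each of the 56 histone genes without (x axis) and with (y axis) offsets for the GC trend of each library, in young (left) and old mice (right); each point is a gene. In young mice the median moves from -0.48 to -0.06, and in old mice from 0.25 to 0.44.

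Markers of other cell types were called between genotypes in both ages. Of 10 satellite cell markers, 1 rose and 3 fell in young knockout, and 1 rose and 1 fell in old knockout. Of 6 endothelial markers 0 were called in either age. Macrophage markers (12 genes) summed to 23.8 to 42.0 CPM in young wild type and 19.5 to 150 CPM in young knockout. The highest of these sums was that of young knockout replicate 1. Of 11 tested in young mice, 0 were called by edgeR and 1 by DESeq2. In young mice the 3 tested erythroid markers fell in knockout, with a summed level of 120 to 258 CPM over 6 genes in wild type and 38.6 to 71.8 CPM in knockout (Hba-a1 and Hba-a2 were at 0 in every library). Fibro-adipogenic markers (8 genes) summed to 5177 to 6116 CPM in young wild type and 3679 to 4360 CPM in young knockout, with 1 called higher and 2 lower, whereas in old mice they summed to 2673 to 3161 CPM in wild type and 3625 to 4841 CPM in knockout, with 2 called higher. Tendon markers (6 genes) summed to 89.0 to 190 CPM in young wild type and 204 to 343 CPM in young knockout. There 5 of 6 were higher without overlap, against 2173 of all 13540 genes, and 1 was called lower. In old mice 3 of 11 tested macrophage markers fell, from sums of 125 to 131 CPM to sums of 18.3 to 79.0 CPM over 12 genes. Of 5 tested neutrophil markers 3 rose, from sums of 2.59 to 7.26 CPM to sums of 7.36 to 96.5 CPM over 6 genes. Of the tendon markers 5 rose in old knockout, from sums of 36.0 to 50.5 CPM to sums of 96.6 to 908 CPM. With GC offsets 1 of 10 satellite cell markers rose and 1 fell in young knockout, and 1 rose and 0 fell in old knockout. No fibro-adipogenic or tendon marker was then called in young knockout, nor the 1 erythroid marker still tested. In old knockout 1 fibro-adipogenic, 1 neutrophil and 5 tendon markers were then called higher and 2 macrophage markers lower. The part of these cell types, of the GC trend and of Lars2 in the histone values was not tested.

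The share of a gene among the counts of its own type does not depend on how libraries are scaled. By this measure 13 of the 58 genes did not overlap between the 6 wild-type and the 6 knockout libraries of both ages, 7 with a higher and 6 with a lower share in knockout. On the CPM scale, by contrast, 0 of the 56 tested genes were higher in all 6 knockout libraries than in all 6 wild-type libraries, against 8.15% of all genes, and 2 were lower, Hist1h4n and Hist2h3b, against 6.23%. Shares of one type sum to 100%, so a higher share of one gene goes with lower shares of others, and no test was made. The measure is defined only within histone types, so the 13 genes have no background over all genes beside them. Genes of one type differ in GC content and can share reads, so the GC trend and uncertain counts can enter the shares as well.

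Of H4 counts, Hist2h4 held 7.01% to 8.92% in wild-type libraries and 2.81% to 5.06% in knockout libraries. Hist1h4a took 3.64% to 4.43% in wild type and 6.44% to 7.97% in knockout. Hist1h4h took 17.0% to 19.6% in wild type and 12.6% to 16.2% in knockout. In the same H4 pool Hist1h4d took 23.6% to 27.6% in wild type and 28.2% to 29.9% in knockout, and Hist1h4c 14.6% to 15.1% and 15.2% to 18.1%. With Hist1h4n, 6 of the 12 H4 genes thus had shares that did not overlap.

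Of H1 counts, Hist1h1a held 18.6% to 24.6% in wild-type libraries and 11.6% to 15.5% in knockout libraries. Hist1h1e took 17.3% to 21.9% in wild type and 23.2% to 29.4% in knockout. These linker histone genes thus stood on opposite sides within the H1 pool. In H3, Hist1h3h took 2.51% to 3.603% in wild type and 4.29% to 5.88% in knockout, and Hist1h3g took 6.01% to 7.02% and 4.85% to 5.79%. In H2b, Hist1h2bn took 1.02% to 1.37% and 1.64% to 2.37%, Hist1h2bl 1.87% to 2.68% and 2.79% to 3.605%, and Hist1h2bk 7.20% to 9.33% and 6.33% to 6.90%. No H2a gene stood apart by its share.

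**Figure D4:**
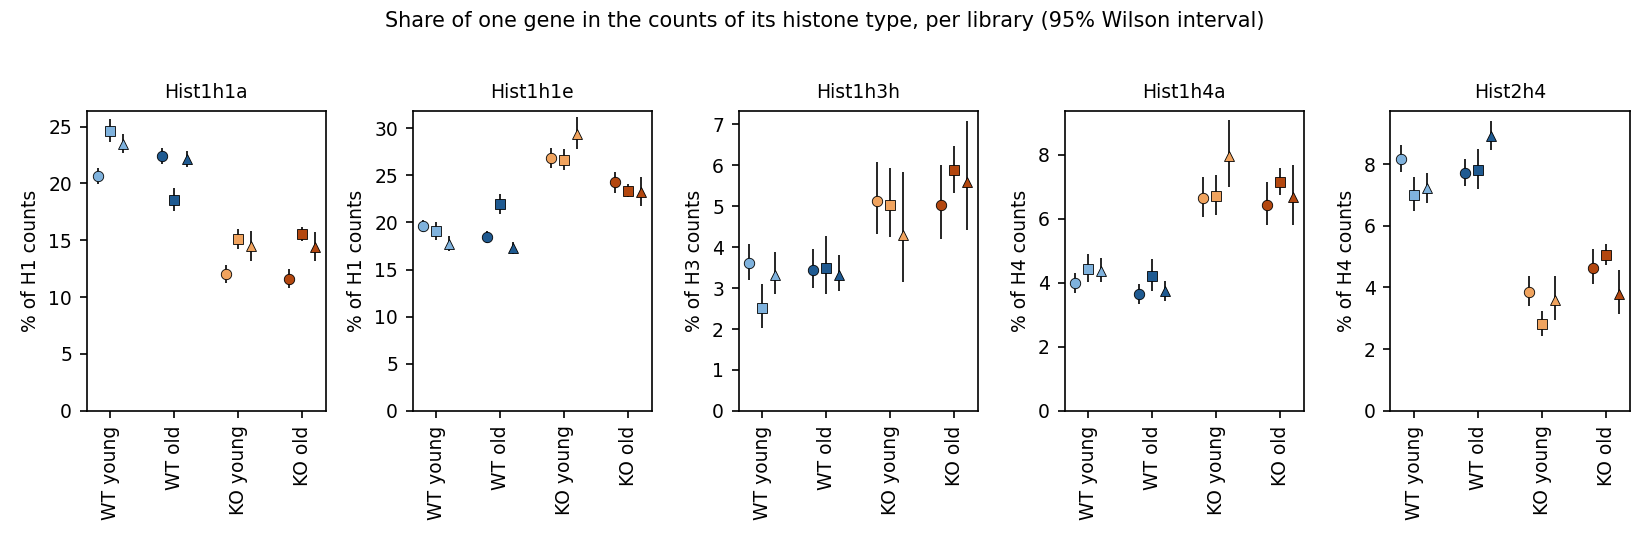
Share of 5 histone genes among the counts of their own type (y axis, percent) in each of the 12 libraries (x axis, by group), with 95% Wilson intervals that cover counting error only. Hist2h4 and Hist1h1a are lower in all 6 knockout libraries, and Hist1h4a, Hist1h1e and Hist1h3h are higher.

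In wild-type mice none of the 56 histone genes passed the test for ageing (0 called in edgeR's quasi-likelihood test and 0 in DESeq2, against 1.06% of all genes in edgeR). At an unadjusted p under 0.05 there was 1, against 1918 of all 13540 genes. It was the H2a gene Hist1h2ag, which has no unique coding window, at a log2 value of -0.59 ± 0.26 (adjusted p = 0.326). Of the 56 values 45 were negative, with a median of -0.19 against 0.01 over all genes. Hist2h4 stood at -0.03 ± 0.22, Hist1h1b at -0.15 ± 0.19 and Hist1h4d at -0.23 ± 0.20. The median was 0.03 without young wild-type replicate 2, the library with the highest histone sum. In the same comparison 3 of 8 fibro-adipogenic markers and 1 of 10 satellite cell markers fell. Macrophage markers summed to 23.8 to 42.0 CPM in young and 125 to 131 CPM in old mice. All 11 tested were higher without overlap, against 1768 of all 13540 genes. Of these 11, 0 were called by edgeR, 6 had an unadjusted p under 0.05 and 2 were called by DESeq2. Tendon markers summed to 89.0 to 190 CPM and 36.0 to 50.5 CPM, with all 6 values negative, 0 called by edgeR, 4 at that p and 1 called by DESeq2. Their part in the histone values was not tested.

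In knockout mice all 56 log2 fold changes of old against young were positive, from 0.15 to 1.06 with a median of 0.53 against -0.01 over all genes, and none passed edgeR's test (0 called, against 0.0148% of all genes). At an unadjusted p under 0.05 there were 19, all higher, against 734 higher and 582 lower of all 13540 genes. DESeq2 called 1, Hist1h1b (0.74, adjusted p = 0.0442), against 136 of all genes. In edgeR Hist1h1b stood at 0.78 ± 0.19 (adjusted p = 0.205), from 74.6, 98.1 and 79.5 CPM in young to 128, 178 and 125 CPM in old knockout. Hist2h4 stood at 0.88 ± 0.24 (adjusted p = 0.230). Neither gene overlapped between the ages, and 15 of the 56 were higher in old knockout without overlap, against 6.37% of all genes. Histone genes share libraries and reads, so 56 values of one sign are not 56 independent observations. None of the listed cell type markers was called in this comparison by edgeR. Neutrophil markers summed to 0.248 to 7.70 CPM in young and 7.36 to 96.5 CPM in old knockout, and all 5 tested had an unadjusted p under 0.05. All 3 tested erythroid markers also had such a p, as did 1 each of 11 macrophage, 8 fibro-adipogenic, 6 endothelial and 6 tendon markers and 0 of 10 satellite cell markers. All 11 macrophage values were negative (median -1.26). DESeq2 called 1 neutrophil, 1 erythroid and 1 endothelial marker. Their part in the histone values was not tested. The median was 0.37 without young knockout replicate 1, 0.82 without young knockout replicate 2, 0.39 without old knockout replicate 2 and 0.34 without both libraries that carry Ddx3y, when 53 of 56 were positive.

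The difference between the age effects of the genotypes was positive for 55 of 56 genes, with a median log2 value of 0.71 against 0.01 over all genes, and 0 genes passed edgeR's test (0.0148% of all genes did) or DESeq2's. At an unadjusted p under 0.05 there were 16, all positive, against 672 positive and 644 negative of all 13540 genes. The smallest adjusted p was that of Hist1h2ag (1.42 ± 0.38, adjusted p = 0.296). The median was 0.46 with GC offsets and 0.47 without the libraries that carry Ddx3y. Of the cell type markers 0 were called by edgeR in this comparison. At an unadjusted p under 0.05 there were 8 of 11 macrophage, 5 of 5 neutrophil, 5 of 6 tendon and 3 of 3 erythroid markers. So were 3 of 8 fibro-adipogenic, 2 of 10 satellite cell and 0 of 6 endothelial markers. All 11 macrophage values were negative, and all neutrophil and tendon values were positive. Their part in the histone values was not tested.

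Genes of S phase, when histone mRNA is made, were counted beside the histones. Of 41 listed genes 40 were tested (Tyms was at 0 in every library). For this and the following lists the background without GC offsets is as above. In young knockout 10% of all genes were called lower and 10.9% higher. In old knockout 7.21% were called lower and 9.52% higher. In young knockout 8 fell, among them the transcription factor E2f1 (log2 fold change -1.46 ± 0.25, adjusted p = 0.00210), the cyclin Ccne1 (-0.95 ± 0.23, adjusted p = 0.0115), the DNA ligase Lig1 (-0.87 ± 0.21, adjusted p = 0.0115) and the polymerase subunit Pold1 (-0.75 ± 0.18, adjusted p = 0.0126), and 1 rose, Pola1 (0.66 ± 0.17, adjusted p = 0.0176). The median was -0.35. In old knockout 3 rose, the helicase subunit Mcm4 (0.81 ± 0.15, adjusted p = 0.00595), Pola1 (0.74 ± 0.17, adjusted p = 0.0141) and the clamp loader subunit Rfc4 (0.77 ± 0.24, adjusted p = 0.0440), with a median of 0.14. With GC offsets 4 S phase genes were called lower and 0 higher in young knockout, E2f1 (-1.13) and Ccne1 (-0.88) among them, while Lig1 (-0.73, adjusted p = 0.0542), Pold1 (-0.38) and Pola1 (0.03) lost their calls, and in old knockout 1 was called lower and 0 higher, so that Mcm4 (0.54, adjusted p = 0.0592), Pola1 (0.26) and Rfc4 (0.45) lost theirs. Across age 0 were called in either genotype; in knockout 37 of 40 values were positive (median 0.47, 22 at an unadjusted p under 0.05, 3 called by DESeq2), and in wild type the median was 0.02 (1 at that p, 0 by DESeq2).

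The ratio of summed histone to summed S phase CPM was 1.26 to 1.92 in young and 1.23 to 1.41 in old wild type, and 1.20 to 1.54 in young and 1.35 to 1.49 in old knockout. All 4 ranges overlapped. The highest ratio, 1.92, belonged to young wild-type replicate 2.

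**Figure D5:**
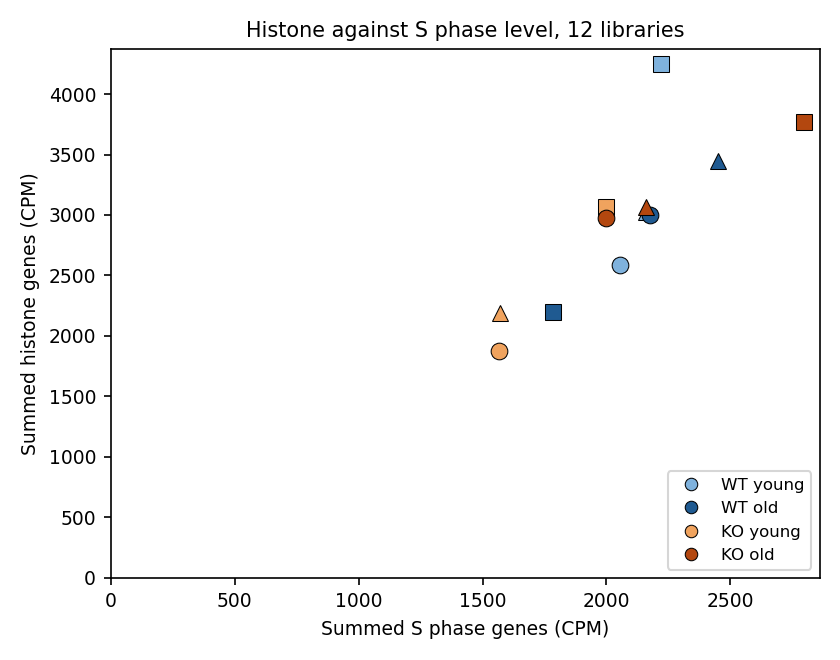
Summed CPM of the histone genes (y axis) against summed CPM of the 41 S phase genes (x axis), 1 point per library, coloured by group. S phase sums run from 1566 to 2799 CPM and histone sums from 1875 to 4252 CPM, and young wild-type replicate 2 has the highest histone sum at an S phase sum of 2219 CPM.

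Of 22 genes of G2 and mitosis, 4 fell in young knockout, the kinases Plk1 (-1.78 ± 0.29, adjusted p = 0.00168), Cdk1 (-0.59 ± 0.20, adjusted p = 0.0466) and Aurkb (-0.71 ± 0.24, adjusted p = 0.0477) and the anaphase activator Cdc20 (-1.08 ± 0.26, adjusted p = 0.0118). In old knockout 3 rose, the kinase Bub1 (1.19 ± 0.30, adjusted p = 0.0204), the cyclin Ccnb1 (1.14 ± 0.31, adjusted p = 0.0258) and the proliferation marker Mki67 (0.68 ± 0.21, adjusted p = 0.0444). With GC offsets 8 were called lower in young knockout, Plk1 (-1.51) and Cdk1 (-0.70) among them, and none of the 22 in old knockout, where Bub1 stood at 0.54, Ccnb1 at 0.80 and Mki67 at 0.52. All 22 values of old against young knockout were positive (median 0.57) with 0 called by edgeR or DESeq2 and 16 at an unadjusted p under 0.05.

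Of 25 factors that make or degrade histone mRNA, 6 rose and 0 fell in young knockout in edgeR (2 were lower at an unadjusted p under 0.05, and DESeq2 called 7 in either direction). Casp8ap2, a component of the histone locus body also called FLASH, went from 37.3 ± 5.29 to 71.1 ± 11.7 CPM (SD, n = 3; log2 fold change 0.93 ± 0.15, adjusted p = 0.00155). Npat, the coactivator of histone transcription, went from 46.7 ± 3.21 to 76.6 ± 18.2 CPM (0.72 ± 0.16, adjusted p = 0.00720). Eri1, the exonuclease that trims the histone stem-loop, rose by 0.64 ± 0.16 (adjusted p = 0.0147) and the decay kinase Smg1 by 0.83 ± 0.20 (adjusted p = 0.0115). In old knockout Eri1 (0.68 ± 0.16, adjusted p = 0.0155), Casp8ap2 (0.59 ± 0.15, adjusted p = 0.0175) and Cpsf2, a cleavage factor (0.45 ± 0.14, adjusted p = 0.0413), rose, and Fip1l1, a polyadenylation factor, fell (-0.45 ± 0.11, adjusted p = 0.0169). With GC offsets no gene of this list was called higher in either age: in young knockout Casp8ap2 stood at 0.26, Npat at 0.01, Eri1 at 0.20 and Smg1 at 0.43, and 1 gene, Fip1l1, was called lower in young (-0.78) and in old knockout (-0.80). Slbp, the stem-loop binding protein, had 40.8 ± 8.17 CPM in wild type and 39.5 ± 7.02 CPM in knockout in young mice, and 35.4 ± 5.28 and 42.3 ± 6.44 CPM in old mice (SD, n = 3), and its log2 fold change stood at -0.05 ± 0.19 in young (adjusted p = 0.880) and 0.26 ± 0.19 in old knockout (adjusted p = 0.360).

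Histone chaperones were mixed, with 3 of 20 higher and 5 lower in young knockout and 3 higher in old knockout. Chaf1a, the large subunit of the replication-coupled chaperone CAF-1, fell in young knockout (-0.96 ± 0.21, adjusted p = 0.00722), as did Daxx (-0.55 ± 0.12, adjusted p = 0.00850). Hat1, the acetyltransferase of new H4, rose in young (0.67 ± 0.15, adjusted p = 0.00776) and old knockout (0.80 ± 0.15, adjusted p = 0.00498), and Atrx, the partner of Daxx, rose in both (0.86 ± 0.15, adjusted p = 0.00204, and 0.58 ± 0.15, adjusted p = 0.0189). Asf1a rose in old knockout (0.58 ± 0.16, adjusted p = 0.0283). With GC offsets 3 chaperones were called lower and 0 higher in young knockout, Chaf1a (-0.82) among them, and 1 lower and 0 higher in old knockout. Hat1 then stood at 0.09 in young and 0.34 in old knockout, Atrx at 0.16 and 0.02, and Daxx at -0.32 in young knockout, none of them called.

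Of 10 tested histone genes expressed outside S phase, 2 fell in young knockout: the linker variant H1fx (-2.02 ± 0.29, adjusted p = 0.00104) and the centromeric H3 variant Cenpa (-0.89 ± 0.26, adjusted p = 0.0277). With GC offsets H1fx was still called (-1.52, adjusted p = 0.0117) and Cenpa was not (-0.78, adjusted p = 0.0818). In old knockout 0 passed edgeR's test (4 had an unadjusted p under 0.05, and DESeq2 called 1). The 3 histone genes reported to give polyadenylated mRNA, Hist1h1c, Hist1h2bc and Hist2h2be, had 0 calls in the 5 comparisons in edgeR without offsets or in DESeq2, with an unadjusted p under 0.05 for 2 of them in old against young knockout, for 1 in old knockout and for 1 in the difference between age effects. With GC offsets Hist1h1c was called higher in young (0.45, adjusted p = 0.0475) and old knockout (0.61, adjusted p = 0.0158). Of the testis histones Hist1h1t alone was tested, at 0.166 to 1.54 CPM, and it was called in no comparison.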

How the data were processed

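RNA of satellite cells was sequenced in 12 libraries (TruSeq Stranded Total RNA, RiboZero Gold), 3 in each of 4 groups taken from the labels. The authors deposited whole-number read counts per gene symbol and library; the submitters' processing notes name TopHat, HTSeq, DESeq2 and the genome build mm9, without versions. Strandedness of counting, and whether reads with several alignments were also counted to genes, are not given in the sources used here. Rows of summary categories (reads outside genes, ambiguous reads, reads with several alignments) entered neither the library sizes nor any test. Reads outside genes were 32.2% to 70.8% and ambiguous reads 0.433% to 1.37%.

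Members and gene lists were chosen with earlier results of these data known, so they are not independent evidence. Genes passing filterByExpr were fitted over all 12 libraries with edgeR 4.0.16 (TMM scaling, robust quasi-likelihood, 1 mean per group) in R 4.3.3, with Benjamini-Hochberg adjustment over 13540 genes. Named genes are every called histone gene, the 2 most abundant of each type, and up to 4 called genes of each other list by smallest p. Intervals on shares are 95% Wilson intervals, and PCR duplicates make them cover counting error only. Alternatives were DESeq2 1.42.0, other scalings, no filter, the replicate block, GC offsets (lowess, span 0.3), only the groups compared, and libraries left out. Scripts were tested on simulated data. Sequences come from GENCODE M21 transcripts and RefSeq promoters of GRCm38.p6, a different build from the counts, used for sequence only. Replicate numbers did not pair the samples (same-number correlations -0.261 to 0.231 over 18 pairs).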

Additional observations from a re-analysis of the deposited data

How the results depend on the processing

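In young mice 8 histone genes were called between genotypes. With GC offsets the number was 5, made up of 3 of the 8 and of Hist1h1c and Hist1h1e, which were called higher. The number was 4 when only the groups compared were fitted, and ranged from 4 to 14 when a library was left out. In old mice 9 were called. The number was 3 with library size alone, of which 2 were among the 9, and 14 with only the groups compared. It was 0 without old wild-type replicate 2 and old knockout replicate 3 together, and 0 without old knockout replicates 2 and 3 together. With a library left out it ranged from 0 to 11. The replicate block gave 4 in old mice, 2 higher and 2 lower, and 9 in young mice; 0 of 12 libraries correlated best with their own number. For ageing in knockout DESeq2 called 1 gene. The cause of these differences was not tested, except that leaving libraries out leaves fewer samples. Ageing in wild type and the difference between age effects had 0 calls in every alternative. Across 22 alternatives, Hist2h4 in young mice ranged from -1.84 to -1.26 and Hist2h3b from -1.62 to -0.96 (log2), both always called, and Hist1h4n from -4.46 to -3.27 in the 21 where it was fitted. In old mice Hist2h4 was called in 15 of 22 (-1.05 to -0.59) and Hist1h4n in 16 of 22 (-4.85 to -2.72). None of the called histone genes changed direction in any alternative, but with GC offsets 17 of the 56 tested histone genes changed sign in young and 7 in old mice, and the median for wild-type ageing went from -0.19 to 0.03 without young wild-type replicate 2. GC offsets for the other gene lists, and offsets for GC and length together, were added after the data were seen; the latter gave 6 calls in young and 12 in old mice. Depth limits Hist1h4n, whose knockout libraries held 0 to 9 counts, and 8 of the 58 genes had under 10 counts in some library.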
